A study of Mus musculus with 12 samples.

Results

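The BCL2 family was followed in mouse spleen T cells through 10 of its genes, taken from the count table by symbol. The 10 symbols were picked with earlier results of these data known. Bcl2, Bcl2l1, Mcl1 and Bcl2a1b encode pro-survival proteins, Bcl2l11, Bbc3, Pmaip1 and Bid encode BH3-only proteins, and Bax and Bak1 encode the effectors. All 10 symbols were among the 53762 in the count table, and all 10 were among the 16945 genes that passed the filter on low counts. The T cells had been co-cultured with partner cells named Res, which carried either shFabp7 or a control construct. A name of the form shFabp7 conventionally marks a short hairpin RNA against Fabp7, a fatty acid binding protein. There were 3 libraries in each of 4 groups, the shFabp7 partner at 48 h, the control partner at 48 h, the shFabp7 partner at 24 h and the control partner at 24 h. All groups shared the spleen source and the serum-containing RPMI-1640 medium. The nature of the Res cells, the number of hairpins or clones, the mouse strain and age, the contact between the cells and any stimulus to the T cells are not stated in the sources used here.

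The family controls the mitochondrial route to apoptosis. BAX and BAK open the outer mitochondrial membrane, pro-survival members hold them in check, and BH3-only proteins bind the pro-survival members or activate the effectors directly. In T cells, BCL2 is known for the survival of resting cells under IL-7, while BCL-XL, the product of Bcl2l1, and MCL1 are known for survival during activation. BIM, the product of Bcl2l11, is known for the death of T cells when cytokine is withdrawn.

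Library totals lay between 32 and 40.6 M counts. Fabp7 itself had 0 counts in 9 of the 12 T cell libraries and 1 to 3 in the control 48 h libraries. A count of 0 allows up to 3 counts per library, by counting error only, and T cell RNA does not check the hairpin in the partner cells. The 12 T cell markers were all detected, and their summed level was 3100 to 3180 CPM with the shFabp7 partner and 3080 to 3190 CPM with the control partner at 48 h, against 3880 to 4060 CPM and 3950 to 3990 CPM at 24 h. The labels do not say that replicates were separate cultures or animals, and p-values therefore measure sample-to-sample spread that can be technical. In RNA from a whole culture, fewer cells of a type and less RNA per cell cannot be told apart.

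Per transcript length, Mcl1 stood first among the 10 genes in every group. With the shFabp7 partner at 48 h, Mcl1 was at 195 ± 7.16 CPM per kb (SD, n = 3 here and below), and Bcl2l1 and Bbc3 followed at 140 ± 3.83 and 140 ± 13.2 CPM per kb without a difference beyond their spread. Bax at 104 ± 5.23, Bak1 at 69.3 ± 2.52, Bcl2 at 47.0 ± 0.742, Bcl2l11 at 38.1 ± 2.22 and Bid at 22.1 ± 0.896 CPM per kb came next. Pmaip1 at 9.91 ± 0.306 and Bcl2a1b at 6.46 ± 0.654 CPM per kb were the lowest in that group. With the control partner at 48 h, Bbc3 was second at 155 ± 9.73 CPM per kb, ahead of Bcl2l1 at 108 ± 5.21 CPM per kb. There Bcl2 at 54.8 ± 0.70 and Bak1 at 51.7 ± 4.0 CPM per kb did not differ beyond their spread. At 24 h Bcl2l1 and Bax were next to each other behind Mcl1, at 140 ± 6.67 and 135 ± 8.48 CPM per kb with the shFabp7 partner and at 115 ± 5.86 and 108 ± 4.28 CPM per kb with the control partner. Bcl2, Bbc3 and Bak1 lay between 66.3 and 68.4 CPM per kb with the control partner at 24 h and could not be ordered. Pmaip1 was the lowest of the 10 genes at 24 h, at 2.94 ± 0.0699 CPM per kb with the shFabp7 partner and 2.98 ± 0.338 CPM per kb with the control partner. The length used was the median over a gene's coding transcripts, which for Bbc3 is 485 bases against 1814 bases for its longest transcript. With the longest transcripts Bbc3 dropped to rank 5 and rank 4 at 48 h and to rank 6 and rank 8 at 24 h, with the shFabp7 partner and with the control partner in that order.

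**Figure D1:**
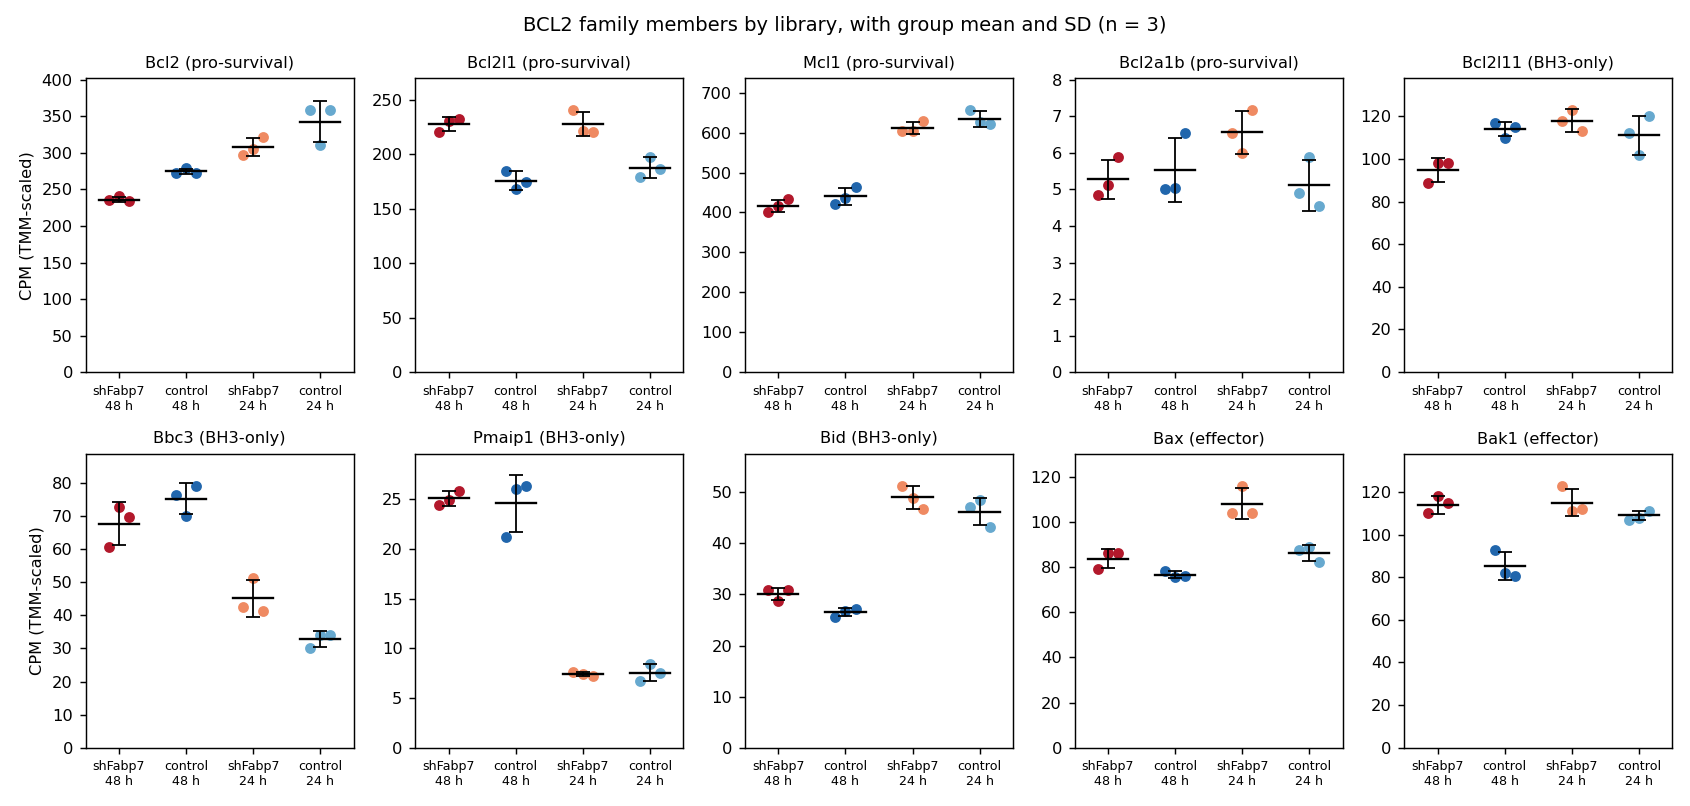
Level of each of the 10 genes in every library, in TMM-scaled CPM on an axis that starts at 0, with 1 panel per gene and the shFabp7 48 h, control 48 h, shFabp7 24 h and control 24 h groups from left to right. Points are libraries, and bars are the group mean and SD (n = 3). Pmaip1 libraries lie between 21.2 and 26.4 CPM at 48 h and between 6.70 and 8.41 CPM at 24 h, while Mcl1 and Bid are lower at 48 h than at 24 h with either partner.

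The first comparison asked what differed in T cells after 48 h with shFabp7 rather than control partner cells. Bcl2l1, Bak1 and Bid were higher and Bcl2 and Bcl2l11 were lower by edgeR's quasi-likelihood test with Benjamini-Hochberg adjustment over the 16945 genes. That is 5 of the 10 genes, 3 up and 2 down, where 31.6% of all genes tested were called, 19.9% up and 11.6% down, so the share of members called does not stand far from the background. The median log2 fold change was -0.02 over the 10 genes and 0.01 over all genes. Changes were small, at most 0.43 on the log2 scale in either direction.

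Among the pro-survival genes, Bcl2l1 was at 221, 231 and 233 CPM in the shFabp7 48 h libraries, against 185, 168 and 175 CPM in the control 48 h libraries. Bcl2 was at 235, 241 and 234 CPM in the shFabp7 libraries, against 272, 279 and 273 CPM in the control libraries. These 2 survival genes thus moved in opposite directions, each with no overlap between its groups. The log2 fold change was 0.38 ± 0.05 for Bcl2l1 (SE, adjusted p = 9.58e-07) and -0.22 ± 0.05 for Bcl2 (adjusted p = 0.00194). Mcl1, a short-lived survival protein, was at 402, 415 and 433 CPM in the shFabp7 libraries, against 422, 437 and 464 CPM in the control libraries. Its groups overlapped, and its log2 fold change of -0.08 ± 0.05 did not pass (adjusted p = 0.231). Bcl2a1b, a copy of the A1 survival gene, was at 4.85 to 5.88 CPM in the shFabp7 libraries and 5.01 to 6.55 CPM in the control libraries (adjusted p = 0.742).

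Among the BH3-only genes, Bcl2l11 was at 88.5, 98.2 and 98.0 CPM in the shFabp7 libraries, against 117, 110 and 115 CPM in the control libraries. All 3 shFabp7 libraries lay below all 3 control libraries, and the log2 fold change was -0.26 ± 0.06 (adjusted p = 0.000585). Bid, which links death receptors to mitochondria once its protein is cleaved by caspases, was at 30.8, 28.7 and 30.9 CPM in the shFabp7 libraries, against 25.6, 26.7 and 27.2 CPM in the control libraries. Its groups did not overlap, with a log2 fold change of 0.19 ± 0.06 (adjusted p = 0.025). The call for Bid was lost in 8 of 15 alternatives, among them the omission of shFabp7 48 h replicate 1 or 3 (adjusted p = 0.0872 and 0.0905) or of control 48 h replicate 1 or 2 (adjusted p = 0.0711 and 0.0552), over a range of adjusted p of 0.0133 to 0.246. Bbc3, which encodes the p53 target PUMA, was at 60.5, 72.8 and 69.8 CPM in the shFabp7 libraries, against 76.5, 70 and 79.2 CPM in the control libraries, with overlap (adjusted p = 0.13). Pmaip1, which encodes NOXA, an antagonist of MCL1, was at 24.4, 24.9 and 25.9 CPM in the shFabp7 libraries, against 21.2, 26.1 and 26.4 CPM in the control libraries, and its groups overlapped (adjusted p = 0.835).

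Of the effectors, Bak1 was at 110, 118 and 115 CPM in the shFabp7 libraries, against 92.6, 81.9 and 80.6 CPM in the control libraries. With no overlap and a log2 fold change of 0.43 ± 0.06 (adjusted p = 3.57e-07), Bak1 had the largest partner difference of the 10 genes at 48 h. Bax was at 78.9, 86.2 and 86.0 CPM in the shFabp7 libraries, against 78.3, 75.6 and 75.9 CPM in the control libraries. Its groups did not overlap either, but its log2 fold change of 0.13 ± 0.06 did not pass (adjusted p = 0.0773), and it passed only with DESeq2 (adjusted p = 0.0473) or without shFabp7 48 h replicate 1 (adjusted p = 0.0384), over a range of 0.0384 to 0.612. Groups did not overlap for 6 of the 10 genes, where 44% of all genes tested showed no overlap. With upper-quartile factors or library totals as scaling, Mcl1 (adjusted p = 0.00958 and 0.0101) and Bbc3 (adjusted p = 0.0163 and 0.0186) were also called lower, Bbc3 likewise without a filter (0.0311) or with only these groups in the fit (0.0431), and 39.9% and 40.5% of all calls were up, against 63.2% with TMM scaling. Over all 15 alternatives the adjusted p ranged from 0.00958 to 0.604 for Mcl1 and from 0.0163 to 0.515 for Bbc3.

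Genes in the marker lists of other cell types also differed between the partners. Which cells in the culture expressed them was not tested. Summed neutrophil markers were at 2.00 to 3.74 CPM with the shFabp7 partner and 3.88 to 8.72 CPM with the control partner, and 3 of the 5 tested of 8 markers fell. Summed epithelial and mesenchymal markers, most of which is Vim, were at 295 to 304 CPM with the shFabp7 partner and 208 to 221 CPM with the control partner. Of 7 tested markers 1, Vim, was up and 1, Cdh1, was down. The median log2 fold change of the 7 was -0.4, so the higher sum does not stand for the list. Summed NK cell markers, most of which is Eomes and Nkg7, were at 297 to 302 CPM with the shFabp7 partner and 314 to 320 CPM with the control partner. Eomes averaged 140 and 150 CPM and Nkg7 146 and 151 CPM, shFabp7 partner before control partner, and neither was called. The 1 of 7 tested markers that was down, Klrb1c, averaged 0.242 and 0.688 CPM in that order. Summed monocyte and macrophage markers were at 14.9 to 16.3 CPM with the shFabp7 partner and 15.7 to 17.7 CPM with the control partner, with Lyz2 lower (-0.76, adjusted p = 0.0173) among 6 tested. Of the 12 T cell markers 5 were lower and 2 higher with the shFabp7 partner, although their summed levels overlapped. At 24 h the neutrophil sums were 6.54 to 8.59 CPM with the shFabp7 partner and 6.64 to 12.1 CPM with the control partner, with 1 marker down, and the monocyte and macrophage sums were 11.5 to 12.8 CPM with the shFabp7 partner and 13.7 to 15.7 CPM with the control partner. The part of these differences in the results for the BCL2 family was not tested.

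**Figure D2:**
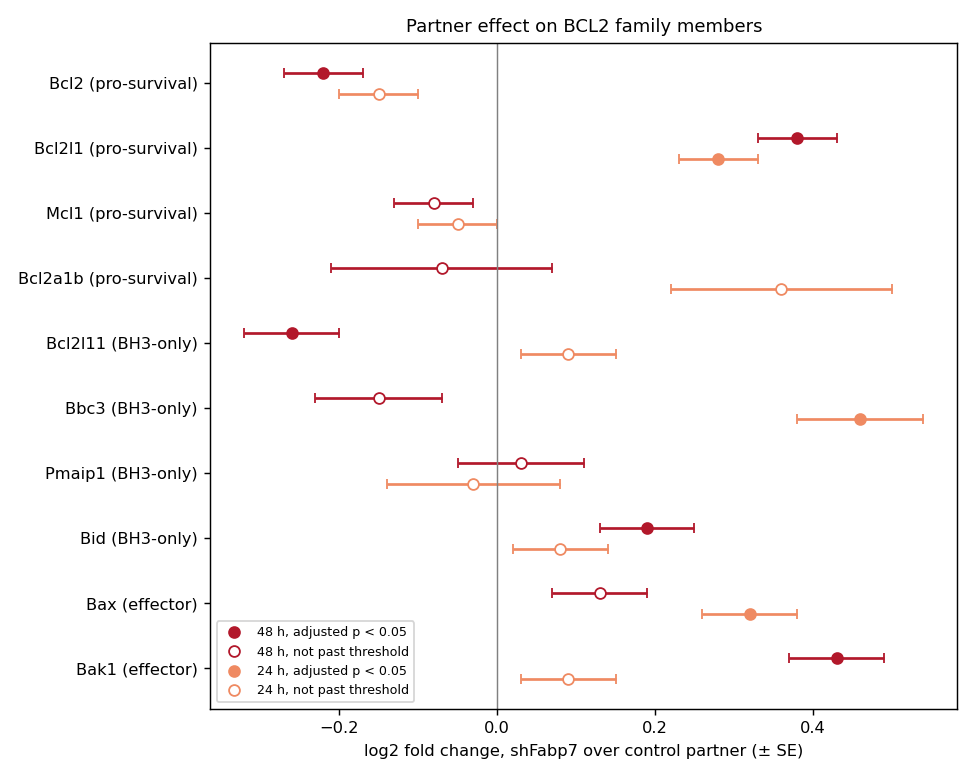
Partner effect on each of the 10 genes as log2 fold change of the shFabp7 over the control partner (x axis, ± SE), at 48 h (upper mark of each gene) and at 24 h (lower mark). Filled marks passed an adjusted p of 0.05. Bcl2l1 is filled at both times, at 0.38 and 0.28, whereas Bak1, Bid, Bcl2 and Bcl2l11 are filled at 48 h and Bbc3 and Bax at 24 h.

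At 24 h the same question gave 3 genes called of the 10, all higher with the shFabp7 partner, where 10.9% of all genes tested were called, 6.22% up and 4.65% down. These were Bcl2l1, Bbc3 and Bax. No member was called lower by edgeR, while 1 member was lower at an unadjusted p under 0.05 and 0 with DESeq2. The median log2 fold change over the 10 genes was 0.09, against 0 over all genes. The calls for the 3 genes held under all 15 alternatives. Of all calls 57.2% were up with TMM scaling, 73.1% with DESeq2, 71.9% with RLE factors, 42.1% with upper-quartile factors and 33.2% with library totals. Without any filter 69.3% were up.

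Bcl2l1 was at 241, 222 and 221 CPM in the shFabp7 24 h libraries, against 179, 198 and 187 CPM in the control 24 h libraries. The groups did not overlap, and the log2 fold change was 0.28 ± 0.05 (adjusted p = 0.000895). Bcl2 was at 297, 305 and 322 CPM in the shFabp7 libraries, against 359, 311 and 359 CPM in the control libraries. Control replicate 2 lay inside the range of the shFabp7 libraries, and the log2 fold change was -0.15 ± 0.05 (adjusted p = 0.0562). Without that library it was -0.20 (adjusted p = 0.00871), and over all 15 alternatives the adjusted p ranged from 0.00871 to 0.324. Mcl1 was at 603, 604 and 630 CPM in the shFabp7 libraries, against 657, 626 and 621 CPM in the control libraries, with overlap (adjusted p = 0.581). Bcl2a1b was at 6.54, 6.0 and 7.18 CPM in the shFabp7 libraries, against 4.89, 5.88 and 4.55 CPM in the control libraries, and its log2 fold change of 0.36 ± 0.14 did not pass (adjusted p = 0.0871). It passed without control 24 h replicate 2 (log2 fold change 0.50, adjusted p = 0.0253) and with DESeq2 (adjusted p = 0.0436), over a range of 0.0253 to 0.234.

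Bbc3 was at 42.5, 51.4 and 41.3 CPM in the shFabp7 24 h libraries, against 30.1, 34.2 and 34.0 CPM in the control 24 h libraries. Every shFabp7 library lay above every control library, and the log2 fold change of 0.46 ± 0.08 (adjusted p = 0.000835) was the largest among the 10 genes at that time. Bax was at 104, 116 and 104 CPM in the shFabp7 libraries, against 87.5, 88.7 and 82.3 CPM in the control libraries. It too showed no overlap, with a log2 fold change of 0.32 ± 0.06 (adjusted p = 0.000351). Bcl2l11 at 113 to 123 CPM in the shFabp7 libraries and 102 to 120 CPM in the control libraries did not pass (adjusted p = 0.36), nor did Pmaip1 at 7.27 to 7.63 CPM and 6.70 to 8.41 CPM (adjusted p = 0.915) or Bid at 46.8 to 51.3 CPM and 43.2 to 48.4 CPM (adjusted p = 0.435). Bak1, at 123, 111 and 112 CPM in the shFabp7 libraries and 107, 108 and 111 CPM in the control libraries, had a log2 fold change of 0.09 ± 0.06 (adjusted p = 0.362), with groups that met at 111 CPM to the digits shown. Groups did not overlap for 5 of the 10 genes, the 3 called genes, Bcl2a1b and, within rounding, Bak1, where 27.5% of all genes tested showed no overlap.

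Bbc3 and Bax, a BH3-only gene and an effector among the 3 genes called higher at 24 h, are shown here by their promoters. A search of RefSeq promoter windows (build GRCm38.p6, 300 bases each, mostly upstream of a start) found the E-box CACGTG in these genes. It was found in no other member searched, including Bcl2l1, which was also called higher at 24 h. Pmaip1 was left out of the search. Each window is written 5′ to 3′ on the gene's strand, with E-boxes in capitals.
Bbc3 (chr7:16310181-16310480, plus strand): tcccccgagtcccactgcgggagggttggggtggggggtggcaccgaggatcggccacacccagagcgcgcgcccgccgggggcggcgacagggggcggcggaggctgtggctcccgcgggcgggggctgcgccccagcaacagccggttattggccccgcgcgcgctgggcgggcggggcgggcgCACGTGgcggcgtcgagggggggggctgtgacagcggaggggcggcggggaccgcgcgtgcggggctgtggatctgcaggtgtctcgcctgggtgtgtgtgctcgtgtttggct
Bax (chr7:45466849-45467148, minus strand): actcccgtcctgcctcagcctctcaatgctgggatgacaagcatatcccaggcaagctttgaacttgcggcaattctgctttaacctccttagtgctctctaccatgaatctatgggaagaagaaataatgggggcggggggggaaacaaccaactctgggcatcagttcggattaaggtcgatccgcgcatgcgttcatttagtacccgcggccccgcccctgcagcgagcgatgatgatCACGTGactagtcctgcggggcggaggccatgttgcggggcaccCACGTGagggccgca
The Bbc3 window holds 1 E-box and the Bax window 2, and none overlaps a GC box. Of the 3 Bbc3 windows in the table the other 2 hold none. The 14 windows of 9 of the 10 genes, all but Pmaip1, were searched for CACGTG, the GC box GGGCGG, the STAT element TTCNNNGAA and the p53 half-site on both strands. CACGTG was in 7.15% of all 32851 RefSeq windows, GGGCGG in 35.7%, TTCNNNGAA in 8.3% and the p53 half-site in 8.36%. The Bax window also held 1 p53 half-site, and TTCNNNGAA was in no searched window of a member. GGGCGG was in windows of Bcl2, Mcl1, Bcl2a1b, Bcl2l11, Bbc3, Bid and Bax and not in those of Bcl2l1 and Bak1. These matches are letters in a window and say nothing of which factors were bound.

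Whether the partner effect itself differed between 48 h and 24 h was tested as an interaction. It was called for 3 of the 10 genes, Bak1 up and Bbc3 and Bcl2l11 down, where 5.6% of all genes tested were called, 4.43% up and 1.17% down. For Bbc3 the partner effect was -0.15 at 48 h and 0.46 at 24 h, a difference of -0.61 ± 0.11 (SE, adjusted p = 0.00167). For Bcl2l11 it was -0.26 at 48 h and 0.09 at 24 h, a difference of -0.35 ± 0.08 (adjusted p = 0.00854). For Bak1 it was 0.43 at 48 h and 0.09 at 24 h, a difference of 0.34 ± 0.08 (adjusted p = 0.00854). The calls for Bbc3 and Bcl2l11 held under all 20 alternatives, with adjusted p up to 0.00768 and 0.0424. The call for Bak1 was lost without shFabp7 24 h replicate 2 (adjusted p = 0.104), shFabp7 24 h replicate 3 (adjusted p = 0.089) or control 24 h replicate 3 (adjusted p = 0.0542), over a range of 0.000195 to 0.104.

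The other 7 genes gave no call for the interaction. Bcl2l1, higher at both times, had a difference of 0.10 ± 0.07 (adjusted p = 0.52), and Bax, called at 24 h, had -0.20 ± 0.08 (adjusted p = 0.144). With upper-quartile factors the value for Bax was -0.26 (adjusted p = 0.0482), over a range of 0.0482 to 0.352 in its 20 alternatives. Bcl2 at -0.06 (adjusted p = 0.73) and Bid at 0.10 (adjusted p = 0.592), called at 48 h, were not shown to differ between the times. Of all interaction calls 79% were up with TMM scaling, 48.9% with upper-quartile factors, 61.9% with library totals and 58.6% without a filter. When 1 library was left out the number of calls over all genes ranged from 319, without shFabp7 24 h replicate 2, to 1680, without control 48 h replicate 1, against 949 with all libraries. The up share then ranged from 50.5% to 83.5%.

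More of the 10 genes were called between 48 h and 24 h than between partners at either time, and the same was true of all genes tested. Pmaip1 and Bbc3 rose at 48 h relative to 24 h with either partner, while Mcl1, Bcl2, Bid and Bax fell with either. With the shFabp7 partner 8 of the 10 genes were called, 2 up and 6 down, where 66.1% of all genes were called, 35.9% up and 30.2% down. With the control partner 7 were called, 2 up and 5 down, where 67.7% were called, 35.8% up and 32% down. With either partner the share of members called in either direction did not stand far from the background. The median log2 fold change over the 10 genes was -0.32 with the shFabp7 partner and -0.13 with the control partner, against 0.06 and 0.04 over all genes. The 48 h and 24 h libraries did not overlap for 8 of the 10 genes with the shFabp7 partner, where 71.4% of all genes showed no overlap, and for 7 with the control partner, where 68.6% did. These comparisons use the same libraries as the partner comparisons.

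Pmaip1 was at 24.4, 24.9 and 25.9 CPM at 48 h and 7.63, 7.44 and 7.27 CPM at 24 h with the shFabp7 partner. With the control partner it was at 21.2, 26.1 and 26.4 CPM at 48 h and 6.70, 8.41 and 7.57 CPM at 24 h. This was a 3.37-fold rise with the shFabp7 partner (log2 fold change 1.75 ± 0.10, adjusted p = 1.98e-17) and a 3.24-fold rise with the control partner (1.70 ± 0.09, adjusted p = 2.78e-17). Bbc3, by group mean, was at 67.7 ± 6.42 CPM at 48 h and 45.1 ± 5.50 CPM at 24 h with the shFabp7 partner, and at 75.2 ± 4.72 CPM at 48 h and 32.8 ± 2.34 CPM at 24 h with the control partner. It rose 1.5-fold with the shFabp7 partner (log2 fold change 0.59 ± 0.08, adjusted p = 2.63e-07) and 2.3-fold with the control partner (1.20 ± 0.08, adjusted p = 4.47e-13). The difference between these time effects is the interaction given above.

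The BH3-only gene Bid fell, to 30.1 ± 1.22 CPM at 48 h against 49.0 ± 2.24 CPM at 24 h with the shFabp7 partner (log2 fold change -0.70 ± 0.06, adjusted p = 9.69e-12). With the control partner it fell to 26.5 ± 0.793 CPM at 48 h against 46.2 ± 2.71 CPM at 24 h (-0.80 ± 0.06, adjusted p = 3.34e-13). Bcl2l11 fell with the shFabp7 partner, at 94.9 ± 5.54 CPM at 48 h and 118 ± 5.24 CPM at 24 h (-0.32 ± 0.06, adjusted p = 1.41e-05). With the control partner it was at 114 ± 3.45 CPM at 48 h and 111 ± 9.03 CPM at 24 h (0.04 ± 0.06, adjusted p = 0.603). With upper-quartile factors or library totals its value there was 0.14 (adjusted p = 0.0369) or 0.22 (adjusted p = 0.000959), over a range of 0.000959 to 0.966.

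Among the pro-survival genes Mcl1 was at 417 ± 15.3 CPM at 48 h and 612 ± 15.3 CPM at 24 h with the shFabp7 partner, a log2 fold change of -0.56 ± 0.05 (adjusted p = 1.52e-11). Mcl1 with the control partner was at 441 ± 21.2 CPM at 48 h and 634 ± 19.5 CPM at 24 h (-0.52 ± 0.05, adjusted p = 5.36e-11). Bcl2 was at 236 ± 3.72 CPM at 48 h and 308 ± 12.5 CPM at 24 h with the shFabp7 partner (-0.38 ± 0.05, adjusted p = 1.39e-07). Bcl2 with the control partner was at 275 ± 3.51 CPM at 48 h and 343 ± 27.7 CPM at 24 h (-0.32 ± 0.05, adjusted p = 2.74e-06). No library of either gene at 48 h reached the lowest library at 24 h with the same partner. Bcl2l1 was at 228 ± 6.26 CPM at 48 h and 228 ± 10.9 CPM at 24 h with the shFabp7 partner (0.00 on the log2 scale, adjusted p = 0.972), and at 176 ± 8.51 CPM at 48 h and 188 ± 9.58 CPM at 24 h with the control partner (-0.10 ± 0.05, adjusted p = 0.105). With library totals the shFabp7 value was 0.15 (adjusted p = 0.00924, range 0.00924 to 0.972), and the control value was past the threshold with DESeq2 (adjusted p = 0.0484) and without control 48 h replicate 1 (adjusted p = 0.0219), over a range of 0.0219 to 0.943.

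The effectors were lower at 48 h for Bax with the shFabp7 partner, at 83.7 ± 4.19 CPM at 48 h and 108 ± 6.79 CPM at 24 h (log2 fold change -0.37 ± 0.05, adjusted p = 4.73e-07). Bax with the control partner was at 76.6 ± 1.49 CPM at 48 h and 86.2 ± 3.43 CPM at 24 h (-0.17 ± 0.06, adjusted p = 0.00718). This last call was lost without control 24 h replicate 2 (adjusted p = 0.0653), with upper-quartile factors (adjusted p = 0.267) and with library totals, which turned its direction to 0.02 (adjusted p = 0.767), over a range of 0.0018 to 0.767. Bak1 fell with the control partner, at 85.1 ± 6.57 CPM at 48 h and 109 ± 2.06 CPM at 24 h (-0.35 ± 0.06, adjusted p = 1.21e-06). With the shFabp7 partner Bak1 was at 114 ± 4.14 CPM at 48 h and 115 ± 6.38 CPM at 24 h (-0.01, adjusted p = 0.839). Library totals turned that value to 0.13 (adjusted p = 0.0288), over a range of 0.0288 to 0.986. Library totals also brought the time difference nearer to 0 by over 1.5 times for other calls that they kept. These were Bcl2 with the shFabp7 partner (-0.23) and the control partner (-0.13, adjusted p = 0.0298), Bcl2l11 with the shFabp7 partner (-0.17), Bax with the shFabp7 partner (-0.22), and Mcl1 (-0.33) and Bak1 (-0.16) with the control partner. That scaling moved the median log2 fold change of all genes to 0.21 with the shFabp7 partner and 0.23 with the control partner, and its up share of all calls was 66.4% and 67.2%, against 54.3% and 52.8% with TMM scaling. T cell markers, summed above, were also lower at 48 h, with 8 of 12 down with either partner and 3 and 2 up. Cd8a averaged 138 CPM at 48 h and 336 CPM at 24 h with the shFabp7 partner, and 161 and 353 CPM with the control partner. Cd4 went the other way, at 561 and 428 CPM with the shFabp7 partner and 562 and 459 CPM with the control partner. The summed dendritic cell markers were at 34.3 to 36.5 CPM at 48 h and 11.3 to 12 CPM at 24 h with the shFabp7 partner. With the control partner they were at 32.7 to 37.2 CPM at 48 h and 10.9 to 13.2 CPM at 24 h, with Cd209a at 0 in all libraries. Of the 4 dendritic cell markers tested, Itgax, Zbtb46 and Batf3 were higher and Flt3 lower at 48 h with either partner. Summed epithelial and mesenchymal markers were at 109 to 123 CPM with the shFabp7 partner and 112 to 127 CPM with the control partner at 24 h, below their 48 h sums. The rise of that sum was mostly Vim, which averaged 290 CPM at 48 h and 103 CPM at 24 h with the shFabp7 partner and 202 CPM at 48 h and 105 CPM at 24 h with the control partner. Of the 7 tested, 4 were higher and 2, Cdh1 and Epcam, lower at 48 h with the shFabp7 partner, and 3 were higher and 1, Cdh1, lower with the control partner. The part of these in the time differences was not tested.

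**Figure D3:**
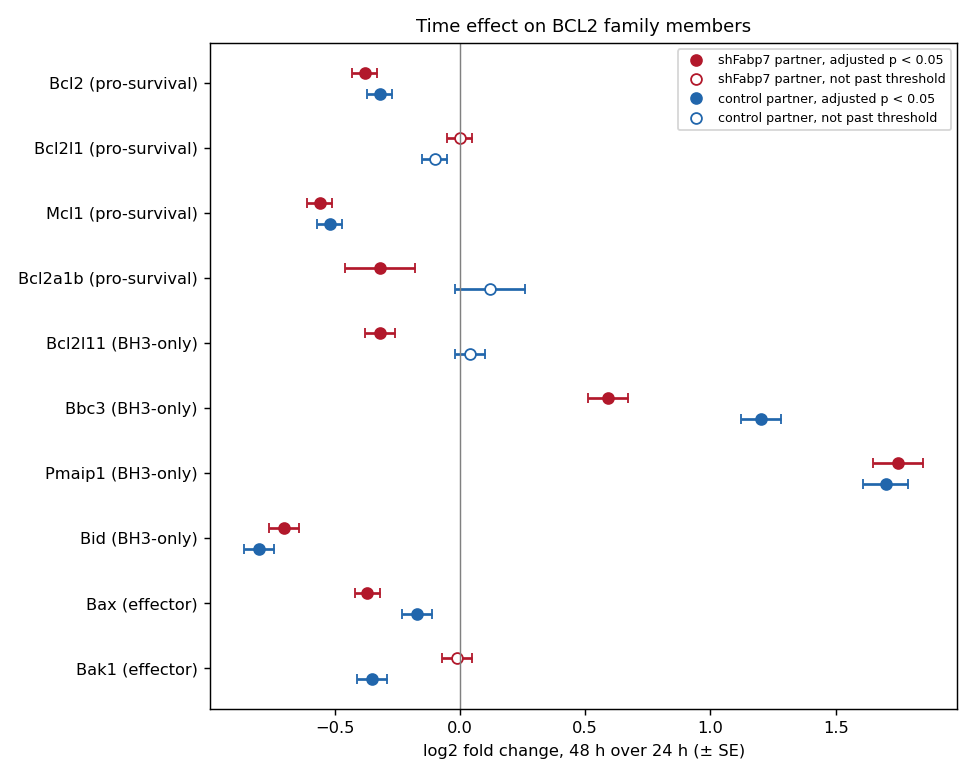
Time effect on each of the 10 genes as log2 fold change of 48 h over 24 h (x axis, ± SE), with the shFabp7 partner (upper mark of each gene) and with the control partner (lower mark), TMM scaling. Filled marks passed an adjusted p of 0.05. Pmaip1 lies farthest to the right at 1.75 and 1.70, and Bid farthest to the left at -0.70 and -0.80. With library totals as scaling Bax with the control partner and Bak1 with the shFabp7 partner turn above 0.

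As shares of the 10 genes' reads per transcript length, the pro-survival genes made up 50.3 ± 0.937% with the shFabp7 partner and 49.9 ± 0.752% with the control partner at 48 h. At 24 h they made up 56.3 ± 1.69% with the shFabp7 partner and 60.1 ± 0.619% with the control partner. The pro-survival share was thus lower at 48 h than at 24 h with either partner, and at 24 h it was lower with the shFabp7 partner with no overlap. BH3-only genes made up 27.2 ± 0.851% with the shFabp7 partner and 30.5 ± 0.637% with the control partner at 48 h, against 20.4 ± 1.25% and 18.4 ± 0.645% at 24 h. Effector genes made up 22.5 ± 0.152% with the shFabp7 partner and 19.6 ± 0.848% with the control partner at 48 h, against 23.3 ± 0.449% and 21.5 ± 0.32% at 24 h. The effector share was higher with the shFabp7 partner in all 3 libraries than in any control library at either time. No test was run on these shares, since each is a score over several members. The 10 genes were chosen with earlier results known, which bears on the tests of single members as well. A share of reads does not measure protein, and all 3 shares depend on the length used. The BH3-only share at 48 h rests largely on Bbc3, at 18.1% with the shFabp7 partner and 20.6% with the control partner. The length of Bbc3 was 485 bases by the median and 1814 bases by its longest transcript. The BH3-only and effector shares were not recomputed with other lengths, so their order is uncertain.

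**Figure D4:**
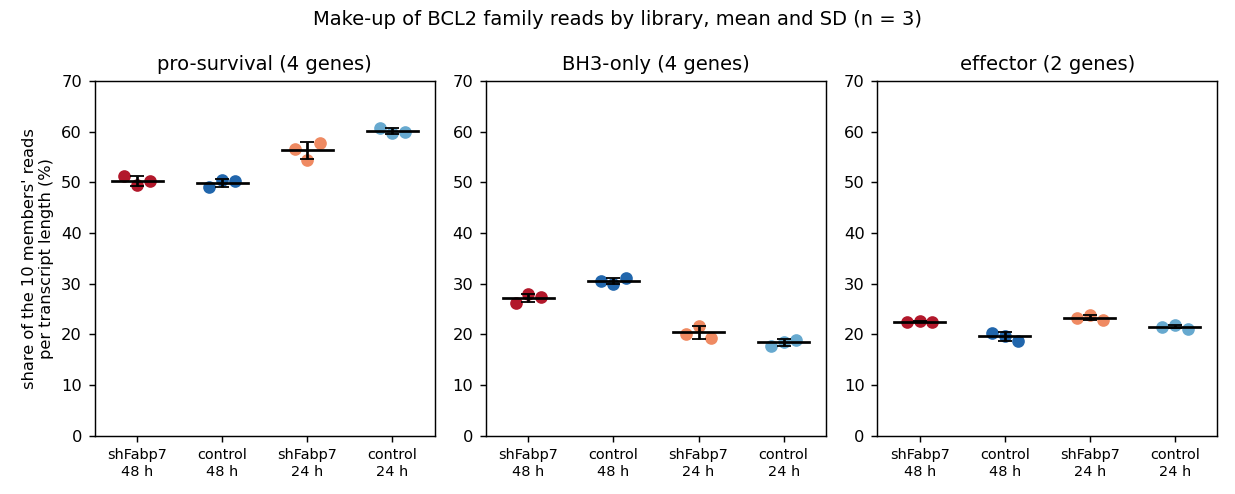
Share of the 10 genes' reads per median coding transcript length that fell to pro-survival, BH3-only and effector genes (y axis, %, from 0), in the shFabp7 48 h, control 48 h, shFabp7 24 h and control 24 h groups from left to right. Points are libraries and bars are mean and SD (n = 3). The BH3-only share lies between 26.2% and 31.1% at 48 h and between 17.7% and 21.7% at 24 h. All of these shares depend on the transcript length used.

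Ratios within a library set the roles against each other and carry no test. The log2 ratio of Bax to Bcl2 per length, an effector over the survival protein that restrains it, was 1.15 ± 0.07 with the shFabp7 partner and 0.80 ± 0.04 with the control partner at 48 h, against 1.13 ± 0.11 and 0.66 ± 0.16 at 24 h. Its partner difference was 0.34 at 48 h and 0.48 at 24 h, with no overlap at either time. The log2 ratio of Bcl2l1 to Bcl2 averaged 1.57 with the shFabp7 partner and 0.98 with the control partner at 48 h, and 1.18 and 0.75 at 24 h, also with no overlap between partners. For Pmaip1 to Mcl1, the antagonist over its target, the log2 ratio averaged -4.30 with the shFabp7 partner and -4.42 with the control partner at 48 h, and -6.61 and -6.64 at 24 h. The time difference was thus 2.31 with the shFabp7 partner and 2.22 with the control partner. Bbc3 to Mcl1 averaged -0.48 with the shFabp7 partner and -0.41 with the control partner at 48 h, with overlap, and -1.63 and -2.14 at 24 h, without overlap. The remaining ratios did not move together over time. Bid to Bcl2l1 averaged -2.66 with the shFabp7 partner and -2.47 with the control partner at 48 h, with overlap, and -1.96 and -1.76 at 24 h, without overlap. Bcl2l11 to Mcl1 averaged -2.35 with the shFabp7 partner and -2.17 with the control partner at 48 h, without overlap, and -2.59 and -2.74 at 24 h, with overlap. The time difference was 0.24 with the shFabp7 partner and 0.56 with the control partner for Bcl2l11 to Mcl1. For Bid to Bcl2l1 it was -0.70 and -0.71 in that order.

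Bcl2a1b needs a separate account, since the mouse genome holds near-identical copies of the A1 gene. Of the 768 possible 50-base windows of the Bcl2a1b transcript (817 bases, GENCODE annotation on GRCm38), 57.6% also occur in Bcl2a1d and 41.1% in Bcl2a1a. The likeness runs into the promoters, of which the 2 copies with most reads are printed to show how little separates them, with the longest stretch that is identical in both in capitals.
Bcl2a1b (chr9:89199023-89199322, plus strand): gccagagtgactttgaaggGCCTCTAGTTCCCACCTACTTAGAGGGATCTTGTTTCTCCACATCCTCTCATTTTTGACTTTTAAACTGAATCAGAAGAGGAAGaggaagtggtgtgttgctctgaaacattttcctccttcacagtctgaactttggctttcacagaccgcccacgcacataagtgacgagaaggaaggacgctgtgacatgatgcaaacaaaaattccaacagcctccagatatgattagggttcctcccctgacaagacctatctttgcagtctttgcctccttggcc
Bcl2a1d (chr9:88731801-88732100, minus strand): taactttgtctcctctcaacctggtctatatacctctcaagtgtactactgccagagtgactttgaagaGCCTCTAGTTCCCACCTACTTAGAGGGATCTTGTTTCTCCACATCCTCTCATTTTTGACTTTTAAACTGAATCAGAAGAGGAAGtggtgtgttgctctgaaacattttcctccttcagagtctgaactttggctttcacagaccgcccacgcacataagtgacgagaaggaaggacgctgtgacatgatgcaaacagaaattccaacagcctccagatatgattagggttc
The identical stretch is 84 bases long, and 247 of 300 bases fell in blocks that match in both windows. The 2 windows start at different points of the shared sequence, so not all 300 bases could be matched. Bcl2a1d took 75.5% to 88.6% of the reads of all copies and Bcl2a1b 9.3% to 17.5%, so the level of Bcl2a1b is uncertain. The rank of Bcl2a1b and its part of the pro-survival share, given above, leave out the reads of the other copies. They do not give the standing of A1 as a whole. Bcl2a1c had 5 counts in total.

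Summed over the copies, A1 was at 52.7 ± 0.543 CPM with the shFabp7 partner and 48.5 ± 4.71 CPM with the control partner at 48 h, against 43.3 ± 4.23 CPM and 38.4 ± 2.55 CPM at 24 h. The partner difference of the sum did not pass at 48 h (log2 fold change 0.12 ± 0.07, adjusted p = 0.202) or at 24 h (0.18 ± 0.07, adjusted p = 0.112). With time the sum rose with the shFabp7 partner (0.28 ± 0.07, adjusted p = 0.000703) and with the control partner (0.34 ± 0.07, adjusted p = 8.26e-05). Bcl2a1b alone gave the opposite sign with the shFabp7 partner, -0.32 ± 0.14 (adjusted p = 0.0404), and 0.12 ± 0.14 with the control partner (adjusted p = 0.471). The time call for Bcl2a1b with the shFabp7 partner is therefore a value of 1 copy and not of the A1 genes together. It was also lost with upper-quartile factors (adjusted p = 0.0727), library totals (0.278) and the stricter filter (0.0513), and without shFabp7 48 h replicate 1 (0.146), shFabp7 48 h replicate 2 (0.0957) or shFabp7 24 h replicate 3 (0.118), over a range of 0.000703 to 0.278 that includes the summed copies.

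**Figure D5:**
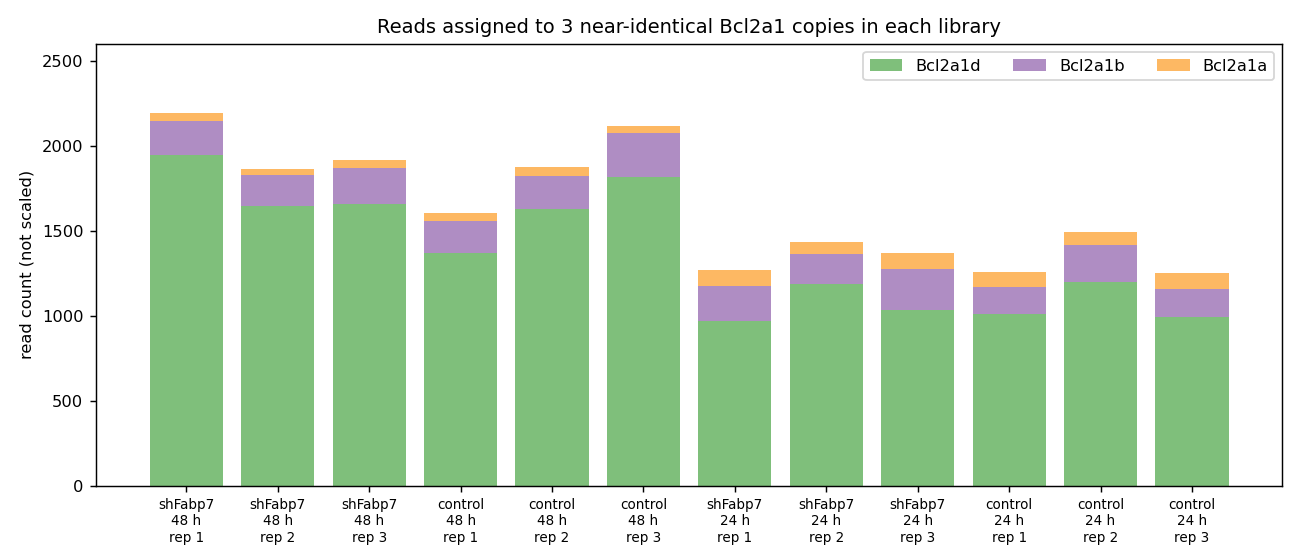
Deposited read counts, not scaled for depth (y axis, from 0), assigned to Bcl2a1d, Bcl2a1b and Bcl2a1a in each of the 12 libraries, stacked, with the shFabp7 48 h, control 48 h, shFabp7 24 h and control 24 h libraries from left to right. Bcl2a1d holds most of each bar, from 75.5% to 88.6% of the reads.

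Genes around the family were counted in 5 lists, to be read against the shares over all genes tested, which for the partner were 19.9% up and 11.6% down at 48 h and 6.22% up and 4.65% down at 24 h. Of the 17 other family members, 14 were tested and 3, Bcl2l10, Bcl2a1c and Hrk, were not. At 48 h, 1 was higher with the shFabp7 partner, Becn1 (log2 fold change 0.14 ± 0.05, adjusted p = 0.0366), an autophagy protein with a BH3 motif. The BH3-only genes Bik (-0.36 ± 0.11, adjusted p = 0.0135) and Bmf (-0.72 ± 0.23, adjusted p = 0.015) were lower, both at low levels, with Bmf at 1.77 ± 0.16 CPM with the shFabp7 partner and 2.90 ± 0.685 CPM with the control partner. These counts rest on single libraries, with 0 higher without any 1 of shFabp7 replicates 1 to 3 or control replicates 2 and 3, and 0 or 1 lower without shFabp7 replicates 1 and 3 or control replicates 2 and 3. At 24 h Bnip3, a mitophagy receptor, was lower at 8.10 ± 0.366 CPM with the shFabp7 partner and 11.5 ± 0.694 CPM with the control partner (-0.51 ± 0.09, adjusted p = 0.000463).

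In the list of MCL1 turnover and mitochondrial partners, 10 of 11 tested genes were higher with the shFabp7 partner at 48 h and 0 lower, with a median log2 fold change of 0.22 against 0.01 over all genes, and 6 were higher with upper-quartile factors or library totals. Dynll1, the dynein light chain that holds BIM, was at 99.2 ± 2.31 CPM with the shFabp7 partner and 67.5 ± 4.48 CPM with the control partner (0.55 ± 0.06, adjusted p = 5.12e-09). Huwe1, a ubiquitin ligase of MCL1, had a log2 fold change of 0.27 ± 0.06 (adjusted p = 0.000279), and Vdac1, a channel of the outer membrane, 0.30 ± 0.05 (adjusted p = 1.89e-05). At 24 h 0 of the 11 passed by edgeR, with 3 up and 1 down at an unadjusted p under 0.05 and 3 up and 0 down with DESeq2. Without control 24 h replicate 2, 4 were higher.

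In the apoptosome and caspase list 7 of 18 genes were higher and 2 lower with the shFabp7 partner at 48 h, with a median of 0.09, so that the share lower was close to that of all genes. Cycs, which encodes the cytochrome c that BAX and BAK release, was at 144 ± 2.39 CPM with the shFabp7 partner and 120 ± 5.69 CPM with the control partner (0.27 ± 0.05, adjusted p = 0.000192). The inhibitor of apoptosis genes Birc2 (-0.29 ± 0.06, adjusted p = 0.000297) and Birc3 (-0.20 ± 0.05, adjusted p = 0.00218) fell. At 24 h 2 were higher, among them Birc5 (0.41 ± 0.11, adjusted p = 0.0107), and 3 lower, among them Xiap (-0.20 ± 0.06, adjusted p = 0.0325). These 24 h counts were unstable, with 0 to 5 higher over the omission of each 24 h library and 0 lower without shFabp7 replicate 1 or 2 or any 1 of the control replicates. In the death receptor list 5 of 9 genes were higher and 1 lower at 48 h, and 2 higher and 0 lower at 24 h, with 1 lower at an unadjusted p under 0.05 and 0 lower with DESeq2. Tnfrsf10b, the TRAIL receptor, was higher at 48 h (0.32 ± 0.06, adjusted p = 6.12e-05) and at 24 h (0.36 ± 0.06, adjusted p = 0.000472), while Fas fell at 48 h (-0.29 ± 0.07, adjusted p = 0.00125). With upper-quartile factors or library totals the up count of the death receptor list at 48 h was 1, and it was 2 without shFabp7 replicate 2 or control replicate 3 and 3 without shFabp7 replicate 3. At 24 h it was 1 without shFabp7 replicate 1 or 2 or control replicate 1 or 3.

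Of 16 upstream regulators, 10 were higher and 2 lower with the shFabp7 partner at 48 h and 6 higher and 1 lower at 24 h, with medians of 0.22 and 0.13. The 24 h up count was 3 without control replicate 1 and 10 without control replicate 3. Il2, the growth cytokine of T cells, was at 16 ± 1.46 CPM with the shFabp7 partner and 9.19 ± 0.746 CPM with the control partner at 48 h (0.80 ± 0.09, adjusted p = 8.23e-08), and at 54.5 ± 6.44 CPM and 36.8 ± 2.67 CPM at 24 h (0.56 ± 0.08, adjusted p = 3.92e-05). Il7r, which encodes the receptor chain that sustains BCL2 in resting T cells, fell at 48 h (-0.25 ± 0.06, adjusted p = 0.00242) and at 24 h (-0.37 ± 0.07, adjusted p = 0.000679). Trp53, which encodes the p53 that can induce Bbc3, Pmaip1 and Bax, was at 166 ± 1.44 CPM with the shFabp7 partner and 126 ± 13.6 CPM with the control partner at 48 h (0.40 ± 0.06, adjusted p = 1.68e-06). At 24 h its log2 fold change of 0.14 ± 0.06 did not pass (adjusted p = 0.104).

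With time the lists moved in both directions, as did all genes tested, with 35.9% up and 30.2% down with the shFabp7 partner and 35.8% up and 32% down with the control partner. Of the other family members 9 rose and 3 fell at 48 h relative to 24 h with the shFabp7 partner and 10 rose and 3 fell with the control partner. The survival gene Bcl2l2 rose by 1.88 ± 0.11 with the shFabp7 partner (adjusted p = 8.22e-17) and 1.66 ± 0.10 with the control partner (adjusted p = 7.52e-16) on the log2 scale. Birc5, which also serves cell division as survivin, rose by 3.64 ± 0.08 with the shFabp7 partner and 3.95 ± 0.08 with the control partner. Of the MCL1 list 1 rose and 5 fell with the shFabp7 partner, and 1 rose and 9 fell with the control partner, while library totals gave 6 up and 3 down and 2 up and 4 down in that order. Without shFabp7 48 h replicate 1, 3 fell with the shFabp7 partner, and 2 rose with the control partner without any 1 of 5 of its libraries. The apoptosome list had 7 up and 5 down with the shFabp7 partner and 8 up and 6 down with the control partner, the upstream list 9 up and 6 down and 8 up and 6 down, and the death receptor list 5 up and 3 down and 4 up and 3 down, in the same order of partners. Il2 fell by 1.77 ± 0.08 with the shFabp7 partner and 2.00 ± 0.09 with the control partner on the log2 scale.

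For each of the 10 genes, the gene with the most similar pattern over the 12 libraries was taken among 8782 genes of at least 10 CPM, by the root mean square (RMS) difference of centred log2 CPM. Small values mean a close match, to be read against the gene's own RMS variation. For Pmaip1 this was Brca1, a DNA repair gene, at 0.11 against 0.86 for Pmaip1's own variation, and for Bid it was Dhx9, an RNA helicase gene, at 0.043 against 0.39. Mcl1 was closest to Spin1 at 0.043 against 0.28, Bcl2 to Rbl1 at 0.045 against 0.21 and Bcl2l1 to Kmt5a at 0.040 against 0.18. Bak1 was closest to Uba1 at 0.036 against 0.19, and Bax to Aen, a nuclease gene induced by p53, at 0.064 against 0.19. Bbc3 was closest to Ptp4a3 at 0.15 against 0.49, Bcl2l11 to Endov at 0.065 against 0.14 and Bcl2a1b to Maff at 0.11 against 0.20. As a ratio to the gene's own variation, the match was between 0.11 and 0.22 for Bid, Pmaip1, Mcl1, Bak1, Bcl2 and Bcl2l1, 0.31 for Bbc3, 0.34 for Bax, 0.46 for Bcl2l11 and 0.55 for Bcl2a1b. Each is the best of 8782 candidates, and no test was made.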

How the data were processed

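The authors deposited RNA sequencing of 12 T cell libraries as a table of raw, unnormalized read counts by gene symbol. CASAVA 1.8.2, TopHat2 2.0.13, HTSeq 0.6.1p1 and build GRCm39 are named per the submitters' processing notes. Settings, strand mode and annotation release are not stated in the sources used here. How reads of overlapping or antisense neighbours and of near-identical copies were assigned is therefore not known here.

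A filter by group on these counts (edgeR's filterByExpr, count of at least 10 and total of at least 15) kept 16945 genes. Libraries of 32 to 40.6 M counts were scaled by TMM. All 12 entered 1 fit of edgeR 4.0.16 (R 4.3.3), tested by its robust quasi-likelihood F test. P-values were adjusted by Benjamini-Hochberg over all 16945 genes and called below 0.05. This test gives every adjusted p in the text unless another is named. Levels are TMM-scaled CPM ± SD, and fold changes are log2 ± SE. The 5 contrasts were the partner effect at 48 h and at 24 h, their difference, and 48 h against 24 h with each partner. No pair of libraries in a group agreed within counting noise (chi-square per degree of freedom 4.1 to 13).

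Transcript lengths came from GENCODE on GRCm38 and promoter windows from RefSeq on GRCm38.p6, matched by symbol. Neither is the authors' build, and no coordinates were converted. The members and the pathway and marker lists were chosen with earlier results of these data known. Named genes were the 10 members, up to 3 called genes per list, direction and contrast by smallest p, the closest pattern per member, and Fabp7, Trp53 and Il2. Some genes that this rule names are not reported here. Alternatives included the tool (DESeq2 1.42.0), scaling by RLE factors, upper-quartile factors or library totals, no filter, a stricter filter (1 CPM in 3 libraries and 100 counts in total), a fit restricted to the groups compared, a block for replicate number, each library left out in turn, summed Bcl2a1 copies and other transcript lengths. The procedure was tested on simulated data before use.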

Additional observations from a re-analysis of the deposited data

Results flagged for a closer look

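By the interaction test over all genes, the partner effect differed between 48 h and 24 h for 3 of the 10 members of the family. It also differed for 4 genes of the lists around the family, where 5.6% of all genes tested were called. These were 1 of 14 other family members, 2 of 11 genes in the MCL1 list and 1 of 16 upstream regulators. In the apoptosome and death receptor lists 0 of 18 and 0 of 9 were called. The share of list genes called was thus close to that of all genes. The difference of log2 fold changes was -0.61 for Bbc3 (adjusted p = 0.00167), -0.35 for Bcl2l11 (adjusted p = 0.00854) and 0.34 for Bak1 (adjusted p = 0.00854). For Bnip3 it was 0.62 ± 0.12 (adjusted p = 0.0012), with 33.8 ± 2.02 CPM with the shFabp7 partner and 31.4 ± 2.43 CPM with the control partner at 48 h, against 8.10 ± 0.366 CPM and 11.5 ± 0.694 CPM at 24 h (SD, n = 3). For Dynll1 it was 0.39 ± 0.08 (adjusted p = 0.00304), with 99.2 ± 2.31 CPM and 67.5 ± 4.48 CPM at 48 h and 140 ± 4.01 CPM and 125 ± 9.80 CPM at 24 h, shFabp7 partner before control partner. For Il2ra it was 0.34 ± 0.08 (adjusted p = 0.00751), with 995 ± 27.1 CPM and 725 ± 19 CPM at 48 h and 739 ± 43.4 CPM and 682 ± 48.1 CPM at 24 h in that order. For Huwe1 it was 0.26 ± 0.08 (adjusted p = 0.0427), with 755 ± 17.5 CPM and 627 ± 52.3 CPM at 48 h and 918 ± 28.2 CPM and 913 ± 40.3 CPM at 24 h in that order.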

How the results depend on the processing

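Each of the 10 genes was tested in 5 comparisons, and in 35 of these 50 its direction, where called, and its side of the threshold held under every alternative run. Of the 8, 7, 5, 3 and 3 calls for time with the shFabp7 partner, time with the control partner, the partner at 48 h, the partner at 24 h and the interaction, 7, 6, 4, 3 and 2 held throughout. Where the main fit or the alternative passed the threshold, direction reversed in 3 cases. With library totals these were Bak1 over time with the shFabp7 partner (0.13) and Bax over time with the control partner (0.02). With copies summed it was Bcl2a1b over time with the shFabp7 partner (0.28). Some values that passed in neither fit also changed sign, among them Bcl2l1 over time with the control partner (-0.1, up to 0.09). The number of members called lower with the shFabp7 partner at 48 h was 4 with upper-quartile factors and with library totals, against 2, while the share of all genes called lower was 18.9% and 18.7%, against 11.6%. At 24 h it was 1 with these and with the stricter filter, against 0, beside 6.11%, 7.16% and 6.65% of all genes, against 4.65%. With library totals 4 members rose over time with the shFabp7 partner, against 2, beside 44.2% of all genes, against 35.9%. With 1 library left out, members called lower at 24 h ranged from 0 to 1 and members called higher for the interaction from 0 to 1. Leaving out 1 library also moved the calls over all genes at 24 h to between 949, without control replicate 1, and 2525, without control replicate 2, against 1842. The cause was not tested. The pro-survival share with the longest transcripts was 55.2% with the shFabp7 partner and 56.0% with the control partner at 48 h and 59.2% and 62.5% at 24 h, and with no length correction 68.1%, 69.1%, 72.3% and 74.9% in the same order. Same-numbered replicates did not deviate together (correlations -0.067 to 0.0101), so the numbers were not taken to pair the samples. With the replicate number as a block, no member's call changed, with 3 members up and 2 down at 48 h, and the partner effect was called for 5195 genes at 48 h (5352 without the block) and 1777 at 24 h (1842), and the interaction for 862 (949).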
